A study of Homo sapiens with 18 samples.

Results

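FOS, FOSB, FOSL1, FOSL2, JUN, JUNB, JUND, EGR1, NR4A1 and NR4A2 are transcription factors grouped here as immediate-early factors, and they are described as 10 genes of the 18417 measured. They were chosen by name, and each was read by the 1 probe set that the probe table pairs with its symbol alone. The cells were NCI-H1299, a line from a non-small cell lung carcinoma that makes no p53 of its own, so all p53 came from the transfected plasmid. Each plasmid was a pIRES-2EGFP vector, which also makes green fluorescent protein; transfection was transient, with Lipofectamine, and fluorescent cells were sorted before RNA was taken 40 hours after transfection. Affymetrix Gene arrays measured 6 groups of 3. The first set (experiments 0, 4 and 5, independent transfections per the series' design) compared empty vector, full-length WTp53, and ΔNp53:WTp53, which pairs WTp53 with ΔNp53, a natural form that lacks the N-terminal part, in a way that the labels do not detail. The second set (experiments d, e and f) compared empty vector, WTp53 and tethered WTp53, and the series calls these control experiments. The arrays of the tethered group carry that name in title and description, but their transfection field reads ΔNp53:WTp53; they were grouped by title. Whether experiments d, e and f were separate transfections is not stated, so p-values in that set measure only the spread between these arrays, which may be technical.

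AP-1 is a dimer of a JUN protein with another JUN, a FOS or an ATF protein, and it binds a short palindromic DNA element. FOS, FOSB, JUN, JUNB and EGR1, a zinc finger factor, are switched on by growth factors and stress through MAP kinases and factors such as serum response factor. This needs no new protein synthesis. NR4A1 and NR4A2 are orphan nuclear receptors induced in the same way. In carcinoma cells AP-1 is best known for its part in growth, invasion and stress responses. The values below are levels at a single time, 40 hours after transfection, and show nothing of the early pulse the group is named for.

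The promoters of JUN, EGR1 and JUNB are shown because JUN and EGR1 had the largest falls with WTp53 in the first set and JUNB the widest step from WTp53 to tethered WTp53. Each is the 250 bases before the RefSeq start site in GRCh38.p14, on the gene's strand, with capitals marking motif matches. The JUN window is chr1:58784048-58784297 on the minus strand, and the capitals mark the AP-1-like sequence TGACATCA, 67 to 60 bases before the start. The EGR1 window is chr5:138465229-138465478 on the plus strand; the capitals mark an EGR site and 2 CArG boxes, the cores of the serum response element. The JUNB window is chr19:12791236-12791485 on the plus strand, and the capitals mark a TATA box 31 to 26 bases before the start.
JUN: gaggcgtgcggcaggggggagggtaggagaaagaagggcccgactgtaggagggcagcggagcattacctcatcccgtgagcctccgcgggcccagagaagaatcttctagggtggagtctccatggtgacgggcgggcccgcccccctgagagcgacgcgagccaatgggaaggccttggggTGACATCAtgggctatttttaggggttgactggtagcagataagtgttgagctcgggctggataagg
EGR1: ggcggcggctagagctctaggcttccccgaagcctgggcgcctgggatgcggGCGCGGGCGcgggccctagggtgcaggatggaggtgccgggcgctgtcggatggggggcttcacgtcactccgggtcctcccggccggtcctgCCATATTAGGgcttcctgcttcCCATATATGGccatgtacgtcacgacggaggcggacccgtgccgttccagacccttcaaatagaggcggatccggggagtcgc
JUNB: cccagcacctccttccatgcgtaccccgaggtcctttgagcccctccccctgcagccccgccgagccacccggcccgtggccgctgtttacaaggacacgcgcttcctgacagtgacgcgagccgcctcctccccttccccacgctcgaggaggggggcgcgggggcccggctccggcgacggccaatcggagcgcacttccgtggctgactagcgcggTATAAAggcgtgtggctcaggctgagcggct
In the EGR1 window the CArG boxes lie 105 to 96 and 83 to 74 bases before the start, and the EGR site GCGCGGGCG lies 198 to 190 bases before it.

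Windows were at hand for 8 of the 10 genes, 9 windows in all because NR4A1 has 2; FOSL1 and NR4A2 had none. Both strands were searched for 8 motifs. TATAAA was also found in FOS and FOSB, and the cAMP response element TGACGTCA in JUND, 200 to 193 bases before the start. The FOSL2 and NR4A1 windows held no match to any of these motifs. No window of the 8 genes held the AP-1 site TGANTCA, the NR4A site AAAGGTCA or the p53 decamer. Of 35116 RefSeq promoters of this length, 1.16% held a CArG box, 2.37% TGACATCA, 8.41% the EGR site GCGNGGGCG, 10.7% TATAAA, 1.65% TGACGTCA, 6.57% TGANTCA, 1.05% AAAGGTCA and 5.57% the p53 decamer. The matches printed above do not overlap each other, and a match is a run of letters, not a shown binding site.

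All values are log2 intensities normalised by RMA, and a difference of 1 is a doubling or halving of the array signal. The sets were deposited on different scales, with array medians of 4.89 to 4.97 and of 7.01 to 7.07, and no level is set against one of the other set. Differences come from a limma fit of each set, given ± SE with p adjusted by the Benjamini-Hochberg method over all 18417 genes, and a gene was called at an adjusted p under 0.05. The median SD of a gene within a group was 0.104 to 0.151 in the groups of experiments 0, 4 and 5 and 0.0493 to 0.0693 in those of d, e and f. The p53 target CDKN1A was higher than in empty vector by 4.62 ± 0.26 with WTp53 and 3.69 ± 0.26 with ΔNp53:WTp53 in the first set, and by 3.13 ± 0.06 with WTp53 and 3.22 ± 0.06 with tethered WTp53 in the second. MDM2, another p53 target, was higher by 3.41 ± 0.11, 3.09 ± 0.11, 2.11 ± 0.10 and 2.27 ± 0.10 in the same order. ΔNp53:WTp53 differed from WTp53 by −0.93 ± 0.26 in CDKN1A (adjusted p = 0.100) and −0.31 ± 0.11 in MDM2 (adjusted p = 0.173). Of 4 markers of the line, epithelial KRT8 lay between 8.76 and 9.98 in the first set, KRT18 between 10.09 and 10.60, VIM, common in this kind of line, between 10.72 and 11.09, and KRT19 between 4.54 and 5.05, about the array median. None of these 4 was called lower; 1 was called higher with ΔNp53:WTp53 over empty vector, 2 with WTp53 and 2 with tethered WTp53 over empty vector in the second set, and 1 with tethered WTp53 over WTp53. Leukocyte PTPRC lay between 2.61 and 2.88 in the first set. ITGAM (6.33 to 6.998), TYROBP (5.65 to 6.33) and NKG7 (5.13 to 5.50) lay above the array medians there. CD79A (4.86 to 5.26) and CD14 (4.41 to 5.26) lay about them, and the other leukocyte markers below. Of 11 leukocyte markers, at most 2 were called higher and at most 2 lower in any comparison within a set, and their per-array mean was 4.25 to 4.48 in experiments 0, 4 and 5 and 6.51 to 6.66 in d, e and f. None of 10 fibroblast and endothelial markers was called in any of the 6 comparisons within sets (the per-array mean of the list was 3.73 to 3.92 for experiments 0, 4 and 5 and 5.82 to 5.93 for d, e and f). Of 6 lung epithelial markers, 1 was called higher with WTp53 in the first set, 2 with ΔNp53:WTp53 and 3 with tethered WTp53, always against empty vector. Their per-array mean was 4.18 to 4.22 in empty vector, 4.48 to 4.54 with WTp53 and 4.33 to 4.73 with ΔNp53:WTp53 in the first set, and 6.57 to 6.64, 6.60 to 6.66 and, with tethered WTp53, 6.71 to 6.75 in the second; the part of this in the results below was not tested. In a sorted bulk sample, fewer cells that make an mRNA and less of it per cell cannot be told apart.

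WTp53 against empty vector asks what full-length p53 does to these factors. JUN and EGR1 were lower and JUNB and NR4A2 higher with WTp53 in both sets. In the first set 3 of 10 were called higher and 2 lower, where 31.8% of all genes were called, 15.2% higher and 16.6% lower; 7 of 10 had groups that did not overlap, against 48.8% of all genes. With the experiment as a block 3 were called higher and 3 lower, FOSL2 being added, where 35% of all genes were called. In the second set 5 were called higher and 3 lower, where 36.8% of all genes were called, 17.9% higher and 18.9% lower, and 9 of 10 did not overlap, against 47.2% of all genes. The median difference over the 10 genes was −0.08 in the first set and 0.11 in the second, beside 0.02 and −0.02 over all genes.

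ΔNp53:WTp53 against empty vector and tethered WTp53 against empty vector put the same question to the other constructs. JUNB, JUND, NR4A1 and NR4A2 were called higher with either, and JUN lower with either. The calls of JUND with ΔNp53:WTp53 and of JUN with tethered WTp53 were lost in several alternatives, given below. With ΔNp53:WTp53, 4 of 10 were called higher and 2 lower, where 36.1% of all genes were called, 15.7% higher and 20.3% lower, and 6 of 10 had groups that did not overlap, against 45.6% of all genes. With the experiment as a block the counts were again 4 and 2, with FOSL2 in place of JUND, where 38.6% of all genes were called. With tethered WTp53, 6 were called higher and 2 lower, where 47.8% of all genes were called, 21.6% higher and 26.2% lower, and 9 did not overlap, against 52.3% of all genes. After quantile normalisation of the arrays once more the split was 7 higher and 1 lower. Over all genes that setting called 4164 higher and 4536 lower, against 3974 and 4821 as deposited. The median difference was 0.14 with ΔNp53:WTp53 and 0.28 with tethered WTp53, beside 0.01 and 0.00 over all genes.

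Each modified construct against WTp53 asks what was added to full-length p53 alone. With ΔNp53:WTp53, JUNB alone of the 10 genes was called higher and none was called lower by limma, where 2.44% of all genes were called, 1.56% higher and 0.88% lower. An unadjusted p under 0.05 was found for 3 of 10. The share of all genes at that unadjusted threshold was not counted, here or below, and the shares given are for the adjusted threshold. With the experiment as a block, which the first set's pairing calls for, 3 were called higher: JUNB, FOSL2 and NR4A2; that fit called 4.38% of all genes. Groups did not overlap for 4 of 10 genes, against 20.6% of all genes. With tethered WTp53, 7 of 10 were called higher and none lower by limma, where 32.4% of all genes were called, 14.9% higher and 17.5% lower. The genes with an unadjusted p under 0.05 were 8 of 10, with no share of all genes counted. Groups did not overlap there for 8 of 10 genes, against 42.6% of all genes. With each array centred on its median, the calls over all genes in that comparison were 1983 higher and 4046 lower, against 2739 and 3231 as deposited. The median difference over the 10 genes was 0.18 with ΔNp53:WTp53 and 0.25 with tethered WTp53, beside −0.01 and 0.02 over all genes. Both comparisons within a set use the same WTp53 arrays as the comparison of WTp53 with empty vector, so the counts are not independent of each other.

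**Figure D1:**
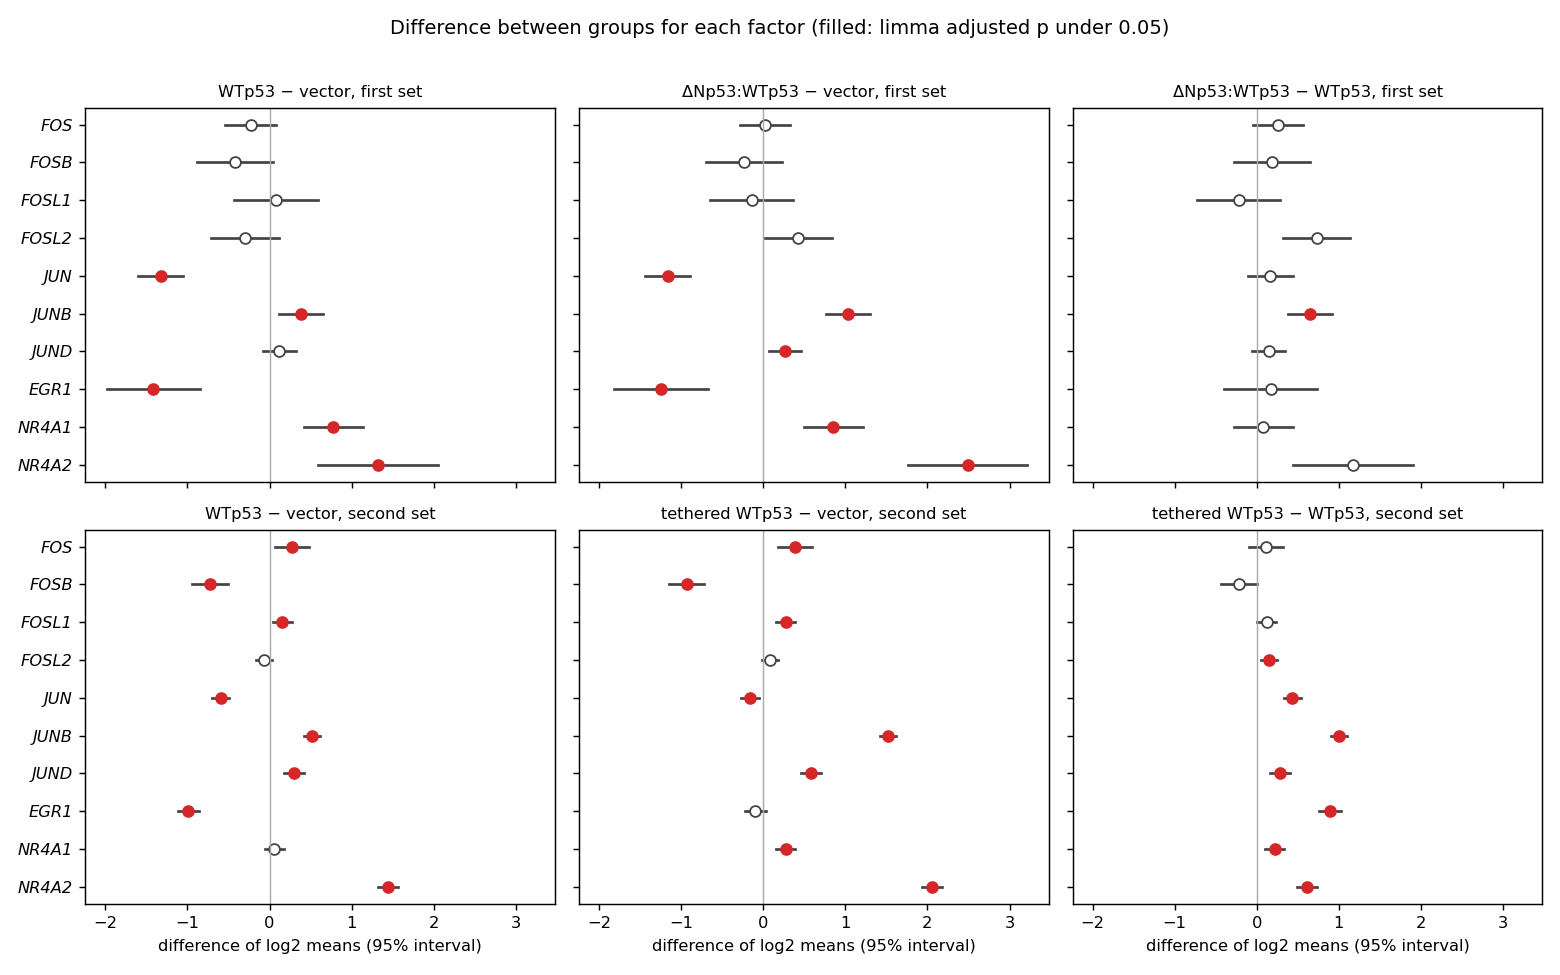
Differences in log2 intensity for the 10 factors in the 6 comparisons within sets, with 95% confidence intervals and filled symbols for genes called at an adjusted p under 0.05. JUN and EGR1 lie below 0 and NR4A2 above 0 with WTp53 in both sets, and tethered WTp53 over WTp53 has 7 called genes, all above 0.

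Of the JUN family, JUN itself is a strong activator among AP-1 subunits. In the first set JUN was at 9.84, 10.18 and 10.20 in empty vector (experiments 0, 4 and 5), at 8.90, 8.67 and 8.67 with WTp53, and at 8.93, 9.03 and 8.77 with ΔNp53:WTp53. All empty vector arrays lay above all arrays with p53, and the ranges of both p53 groups overlapped. The fall against empty vector was −1.33 ± 0.12 with WTp53 (adjusted p = 6.37e-05, 2.51-fold lower) and −1.16 ± 0.12 with ΔNp53:WTp53 (adjusted p = 1.11e-04, 2.24-fold lower). Between these constructs JUN differed by 0.16 ± 0.12 (adjusted p = 0.556), with a 95% confidence interval of −0.11 to 0.44.

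The second set had JUN at 10.81, 10.72 and 10.80 in empty vector, 10.20, 10.20 and 10.15 with WTp53, and 10.54, 10.65 and 10.66 with tethered WTp53. The 3 groups did not overlap, and the tethered group lay between the others. JUN fell by −0.59 ± 0.05 with WTp53 (adjusted p = 3.15e-06) and was 0.43 ± 0.05 higher with tethered WTp53 than with WTp53 (adjusted p = 1.11e-04, 1.35-fold). Against empty vector the tethered group was lower by −0.16 ± 0.05 (adjusted p = 0.0156). Arrays left out are named by group and experiment. This last call was lost without tethered experiment d (adjusted p = 0.0594), empty vector d (0.0571) or empty vector f (0.0522), at differences of −0.12, −0.14 and −0.15. It was also lost after quantile normalisation once more (−0.10, 0.0842) and in a joint fit of all 18 arrays, which shares the spread of both sets (0.233).

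JUNB, a JUN family member that activates many AP-1 elements less than JUN does, was stepped across the groups in both sets. It was at 8.57, 8.18 and 8.24 in empty vector of the first set, at 8.85, 8.59 and 8.71 with WTp53, and at 9.36, 9.47 and 9.25 with ΔNp53:WTp53. No range overlapped another, and every experiment kept the order empty vector, WTp53, ΔNp53:WTp53. JUNB rose by 0.39 ± 0.12 with WTp53 (adjusted p = 0.0335, 1.31-fold) and by 1.03 ± 0.12 with ΔNp53:WTp53 (adjusted p = 1.95e-04, 2.04-fold). It was 0.64 ± 0.12 higher with ΔNp53:WTp53 than with WTp53 (adjusted p = 0.0265, 1.56-fold), and by 0.51, 0.88 and 0.54 in experiments 0, 4 and 5.

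With the experiment as a block both smaller JUNB steps were called, at adjusted p-values of 0.0217 and 0.0173. In the fit without it they lay near the threshold. The rise with WTp53 was not called without empty vector 4 (adjusted p = 0.128), empty vector 5 (0.115), WTp53 0 (0.11) or WTp53 5 (0.0852), at differences of 0.31 to 0.39, nor with arrays centred on their medians (0.34, 0.0617) or p-values adjusted over all probe sets (0.0546). The step from WTp53 to ΔNp53:WTp53 was not called without ΔNp53:WTp53 4 (adjusted p = 0.119), ΔNp53:WTp53 5 (0.0594), WTp53 4 (0.124) or WTp53 5 (0.109), at differences of 0.58 to 0.70, nor in a fit of the 6 arrays compared (0.0559) or with p-values adjusted over all probe sets (0.0531).

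JUNB values of the second set were 10.36, 10.28 and 10.41 in empty vector, 10.83, 10.89 and 10.89 with WTp53, and 11.87, 11.87 and 11.88 with tethered WTp53. Again no range overlapped another. JUNB rose by 0.52 ± 0.04 with WTp53 (adjusted p = 5.17e-06, 1.43-fold) and by 1.52 ± 0.04 with tethered WTp53 (adjusted p = 1.12e-09, 2.87-fold). Tethered WTp53 gave 1.003 ± 0.04 more than WTp53 (adjusted p = 1.09e-06), the widest step between those groups among the 10 genes.

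JUND, the JUN family member that many cells make without stimulation, rose less. Its arrays in the first set read 7.37, 7.39 and 7.21 in empty vector, 7.51, 7.35 and 7.47 with WTp53, and 7.52, 7.67 and 7.57 with ΔNp53:WTp53. The ΔNp53:WTp53 arrays lay above the other 6, which overlapped. The difference from empty vector of 0.26 ± 0.09 had an adjusted p of 0.0410. This call was not made with the experiment as a block (adjusted p = 0.0564). Nor was it made when any 1 of 8 arrays was left out (adjusted p = 0.0514 to 0.154, difference 0.21 to 0.30); it was kept without ΔNp53:WTp53 0. The 8 were all 3 arrays of empty vector, all 3 of WTp53, and ΔNp53:WTp53 4 and 5. The adjusted p was 0.0553 to 0.0719 in a fit of 6 arrays, over all probe sets, with centred arrays and with a robust, trended prior. With WTp53 the difference from empty vector was 0.12 ± 0.09 (adjusted p = 0.358).

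The second set had JUND at 9.13, 9.18 and 9.24 in empty vector, 9.40, 9.57 and 9.48 with WTp53, and 9.70, 9.81 and 9.78 with tethered WTp53. The 3 ranges lay apart. JUND rose by 0.30 ± 0.05 with WTp53 (adjusted p = 0.00118) and by 0.58 ± 0.05 with tethered WTp53 (adjusted p = 5.19e-06), and the step between them was 0.28 ± 0.05 (adjusted p = 0.00288).

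EGR1, the zinc finger factor whose promoter carries the CArG boxes shown above, had the largest fall of the 10 genes with WTp53. In the first set it was at 10.29, 10.26 and 10.24 in empty vector, 9.43, 8.39 and 8.73 with WTp53, and 9.49, 8.77 and 8.80 with ΔNp53:WTp53. Empty vector lay above every array with p53, and the highest value of either p53 group was that of experiment 0. EGR1 fell by −1.41 ± 0.25 with WTp53 (adjusted p = 0.00208, 2.67-fold lower) and by −1.24 ± 0.25 with ΔNp53:WTp53 (adjusted p = 0.00378, 2.37-fold lower). Between the p53 groups the difference was 0.17 ± 0.25 (adjusted p = 0.803), with a 95% confidence interval of −0.40 to 0.74.

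With experiments d, e and f, EGR1 was at 12.29 on all 3 empty vector arrays, at 11.31, 11.23 and 11.37 with WTp53, and at 12.13, 12.13 and 12.33 with tethered WTp53. WTp53 lay below both other groups, whose ranges overlapped. EGR1 fell by −0.99 ± 0.06 with WTp53 (adjusted p = 4.46e-07, 1.98-fold lower), and tethered WTp53 gave 0.89 ± 0.06 more than WTp53 (adjusted p = 1.09e-05, 1.86-fold). Tethered WTp53 and empty vector differed by −0.09 ± 0.06 (adjusted p = 0.238), with a 95% confidence interval of −0.23 to 0.04. Without tethered experiment f, whose value was the highest of its group, that difference was −0.16 and was called (adjusted p = 0.0209).

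NR4A2 (Nurr1), a nuclear receptor with no known ligand in the classical sense, had the largest rise of the 10 genes against empty vector in each of the 4 comparisons. In the first set it was at 4.75, 5.07 and 5.04 in empty vector, 5.80, 6.52 and 6.50 with WTp53, and 6.59, 7.91 and 7.83 with ΔNp53:WTp53. No range overlapped another, and experiment 0 had the lowest value in each group. Empty vector levels of NR4A2 lay about the array medians in both sets (4.89 to 4.97 and 7.01 to 7.07). No file gives signal over background, so the share of background in them is not known. NR4A2 rose by 1.32 ± 0.33 with WTp53 (adjusted p = 0.0111, 2.50-fold) and by 2.49 ± 0.33 with ΔNp53:WTp53 (adjusted p = 3.55e-04, 5.63-fold).

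The step in NR4A2 from WTp53 to ΔNp53:WTp53 was 1.17 ± 0.33 (2.25-fold), and 0.78, 1.39 and 1.33 in experiments 0, 4 and 5. It was not called in the fit without a block (adjusted p = 0.0948) and was called with the experiment as a block (adjusted p = 0.0115). Without ΔNp53:WTp53 of experiment 0 the step was 1.60 (adjusted p = 0.00153). That value keeps the low WTp53 array of experiment 0 without its pair, and it lies above the step of every experiment. Without any array of experiment 0, a setting chosen after the data were seen, the step was 1.36 (adjusted p = 4.62e-04).

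The second set had NR4A2 at 7.04, 6.94 and 7.02 in empty vector, 8.35, 8.50 and 8.49 with WTp53, and 9.04, 9.12 and 9.0 with tethered WTp53. The ranges again lay apart in the same order. NR4A2 rose by 1.45 ± 0.05 with WTp53 (adjusted p = 1.67e-08, 2.73-fold) and by 2.05 ± 0.05 with tethered WTp53 (adjusted p = 5.74e-10, 4.15-fold). Tethered WTp53 gave 0.61 ± 0.05 more than WTp53 (adjusted p = 4.02e-05, 1.52-fold). In the joint fit of all 18 arrays this step had an adjusted p of 0.150.

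NR4A1 (Nur77), the receptor of the family known for its part in apoptosis of T cells, behaved differently in the sets. It was at 5.85, 5.76 and 5.96 in empty vector of the first set, 6.52, 6.70 and 6.69 with WTp53, and 6.31, 7.05 and 6.78 with ΔNp53:WTp53. Empty vector lay below both p53 groups, and the ΔNp53:WTp53 range enclosed that of WTp53. NR4A1 rose by 0.77 ± 0.16 with WTp53 (adjusted p = 0.00466, 1.71-fold) and by 0.85 ± 0.16 with ΔNp53:WTp53 (adjusted p = 0.00257, 1.81-fold), and the p53 groups differed by 0.08 ± 0.16 (adjusted p = 0.872).

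With experiments d, e and f, NR4A1 was at 8.19, 8.25 and 8.30 in empty vector, 8.31, 8.31 and 8.29 with WTp53, and 8.63, 8.49 and 8.45 with tethered WTp53. Empty vector and WTp53 overlapped, and the tethered arrays lay above both. WTp53 differed from empty vector by 0.06 ± 0.05 (adjusted p = 0.454). With tethered WTp53 NR4A1 rose by 0.28 ± 0.05 over empty vector (adjusted p = 0.00108) and by 0.22 ± 0.05 over WTp53 (adjusted p = 0.00899). The joint fit of all 18 arrays called neither (adjusted p = 0.110 and 0.310).

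The FOS family supplies the partners of the JUN proteins, and its members moved less evenly. FOS itself was at 8.99, 8.95 and 9.09 in empty vector of the first set, 8.64, 8.83 and 8.87 with WTp53, and 8.77, 9.34 and 8.996 with ΔNp53:WTp53. Every WTp53 array lay below every empty vector array, but the difference of −0.23 ± 0.14 was not called (adjusted p = 0.244), nor was 0.03 ± 0.14 with ΔNp53:WTp53 (adjusted p = 0.916). In the second set FOS was at 9.79, 9.91 and 9.98 in empty vector, 10.18, 10.13 and 10.20 with WTp53, and 10.18, 10.13 and 10.54 with tethered WTp53. Both p53 groups lay above empty vector there and overlapped each other. FOS rose by 0.39 ± 0.09 with tethered WTp53 (adjusted p = 0.00518, 1.31-fold) and by 0.28 ± 0.09 with WTp53 (adjusted p = 0.0411). The latter call was lost without empty vector d (adjusted p = 0.148), empty vector e (0.0841), WTp53 d (0.0943), WTp53 e (0.0725) or WTp53 f (0.111), at differences of 0.23 to 0.30. It was also lost in the joint fit (0.148) and with p-values adjusted over all probe sets (0.0858).

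FOSB, which cells make in a full and a shortened form, was called lower with both p53 constructs of the second set. Its arrays in the second set read 8.93, 8.77 and 8.87 in empty vector, 8.15, 8.11 and 8.15 with WTp53, and 7.74, 7.83 and 8.20 with tethered WTp53. Empty vector lay above all p53 arrays, and the tethered range, with experiment f at its top, enclosed that of WTp53. FOSB fell by −0.72 ± 0.10 with WTp53 (adjusted p = 1.67e-04, 1.65-fold lower) and by −0.93 ± 0.10 with tethered WTp53 (adjusted p = 1.29e-05, 1.91-fold lower). Tethered WTp53 and WTp53 differed by −0.21 ± 0.10 (adjusted p = 0.123), and without tethered experiment f by −0.35 (adjusted p = 0.00144). In the first set FOSB was at 7.19, 7.14 and 7.02 in empty vector, 6.33, 6.81 and 6.94 with WTp53, and 6.43, 7.26 and 6.94 with ΔNp53:WTp53. WTp53 lay below empty vector on every array, with a difference of −0.42 ± 0.21 that was not called (adjusted p = 0.158).

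FOSL1 (FRA-1), a FOS family member common in invasive carcinoma lines, was not called in any comparison of the first set. There it was at 9.02, 8.48 and 8.42 in empty vector, 9.02, 8.61 and 8.54 with WTp53, and 8.98, 8.28 and 8.25 with ΔNp53:WTp53. The arrays of experiment 0 were the high ones in all 3 groups, and the groups overlapped. In the second set it was at 11.34, 11.44 and 11.45 in empty vector, 11.60, 11.55 and 11.54 with WTp53, and 11.62, 11.66 and 11.78 with tethered WTp53. The 3 ranges lay apart and in that order. FOSL1 rose by 0.28 ± 0.05 with tethered WTp53 (adjusted p = 0.00101, 1.21-fold) and by 0.15 ± 0.05 with WTp53 (adjusted p = 0.0403). The call with WTp53 was lost when any 1 of the 6 arrays compared was left out, with differences of 0.12 to 0.17 and adjusted p-values of 0.147, 0.0597 and 0.0507 without empty vector d, e and f, and 0.119, 0.0806 and 0.0679 without WTp53 d, e and f. It was also lost over all probe sets (0.0685), and the joint fit called neither rise (adjusted p = 0.665 with WTp53 and 0.281 with tethered WTp53). The step from WTp53 to tethered WTp53 was 0.12 ± 0.05 (adjusted p = 0.0957), and 0.19 (0.0167) after quantile normalisation once more.

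FOSL2 (FRA-2) was called in no comparison of the first set without the block and in all 3 with it. It was at 6.80, 7.39 and 7.30 in empty vector, 6.64, 6.96 and 6.998 with WTp53, and 7.28, 7.80 and 7.70 with ΔNp53:WTp53. Within every experiment WTp53 was the lowest and ΔNp53:WTp53 the highest of the 3 arrays. Without a block the differences were −0.30 ± 0.18 for WTp53 (adjusted p = 0.259) and 0.43 ± 0.18 for ΔNp53:WTp53 (adjusted p = 0.102), both against empty vector. Between the constructs the difference was 0.73 ± 0.18 (adjusted p = 0.0730). With the experiment as a block all 3 were called, at adjusted p-values of 0.0265, 0.00430 and 0.00540.

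In experiments 0, 4 and 5 FOSL2 with ΔNp53:WTp53 was 0.48, 0.41 and 0.40 above empty vector. Without ΔNp53:WTp53 of experiment 0 the difference of that construct was 0.58 from empty vector (adjusted p = 0.0224) and 0.89 from WTp53 (adjusted p = 0.0114). Both keep the low values of experiment 0 in the other groups, so they mix its shift with the effect. Without any array of experiment 0, a setting chosen after the data were seen, the differences were 0.40 (adjusted p = 0.00711) and 0.77 (0.00250). The difference from WTp53 was also called without empty vector of experiment 0 (0.73, adjusted p = 0.0468). In the second set FOSL2 was at 9.08 on all 3 empty vector arrays, 9.0, 9.06 and 8.97 with WTp53, and 9.17, 9.21 and 9.10 with tethered WTp53. These ranges were narrow and lay apart. FOSL2 was 0.15 ± 0.04 higher with tethered WTp53 than with WTp53 (adjusted p = 0.0232), a call lost without tethered d (adjusted p = 0.0607), tethered e (0.0665), WTp53 d (0.0614) or WTp53 f (0.0858), at differences of 0.12 to 0.14. Centring the arrays (0.11, 0.0942) and the joint fit (0.573) lost it too. Against empty vector it differed by −0.07 ± 0.04 with WTp53 (adjusted p = 0.251) and 0.08 ± 0.04 with tethered WTp53 (adjusted p = 0.165, and 0.0472 at 0.12 after quantile normalisation once more).

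**Figure D2:**
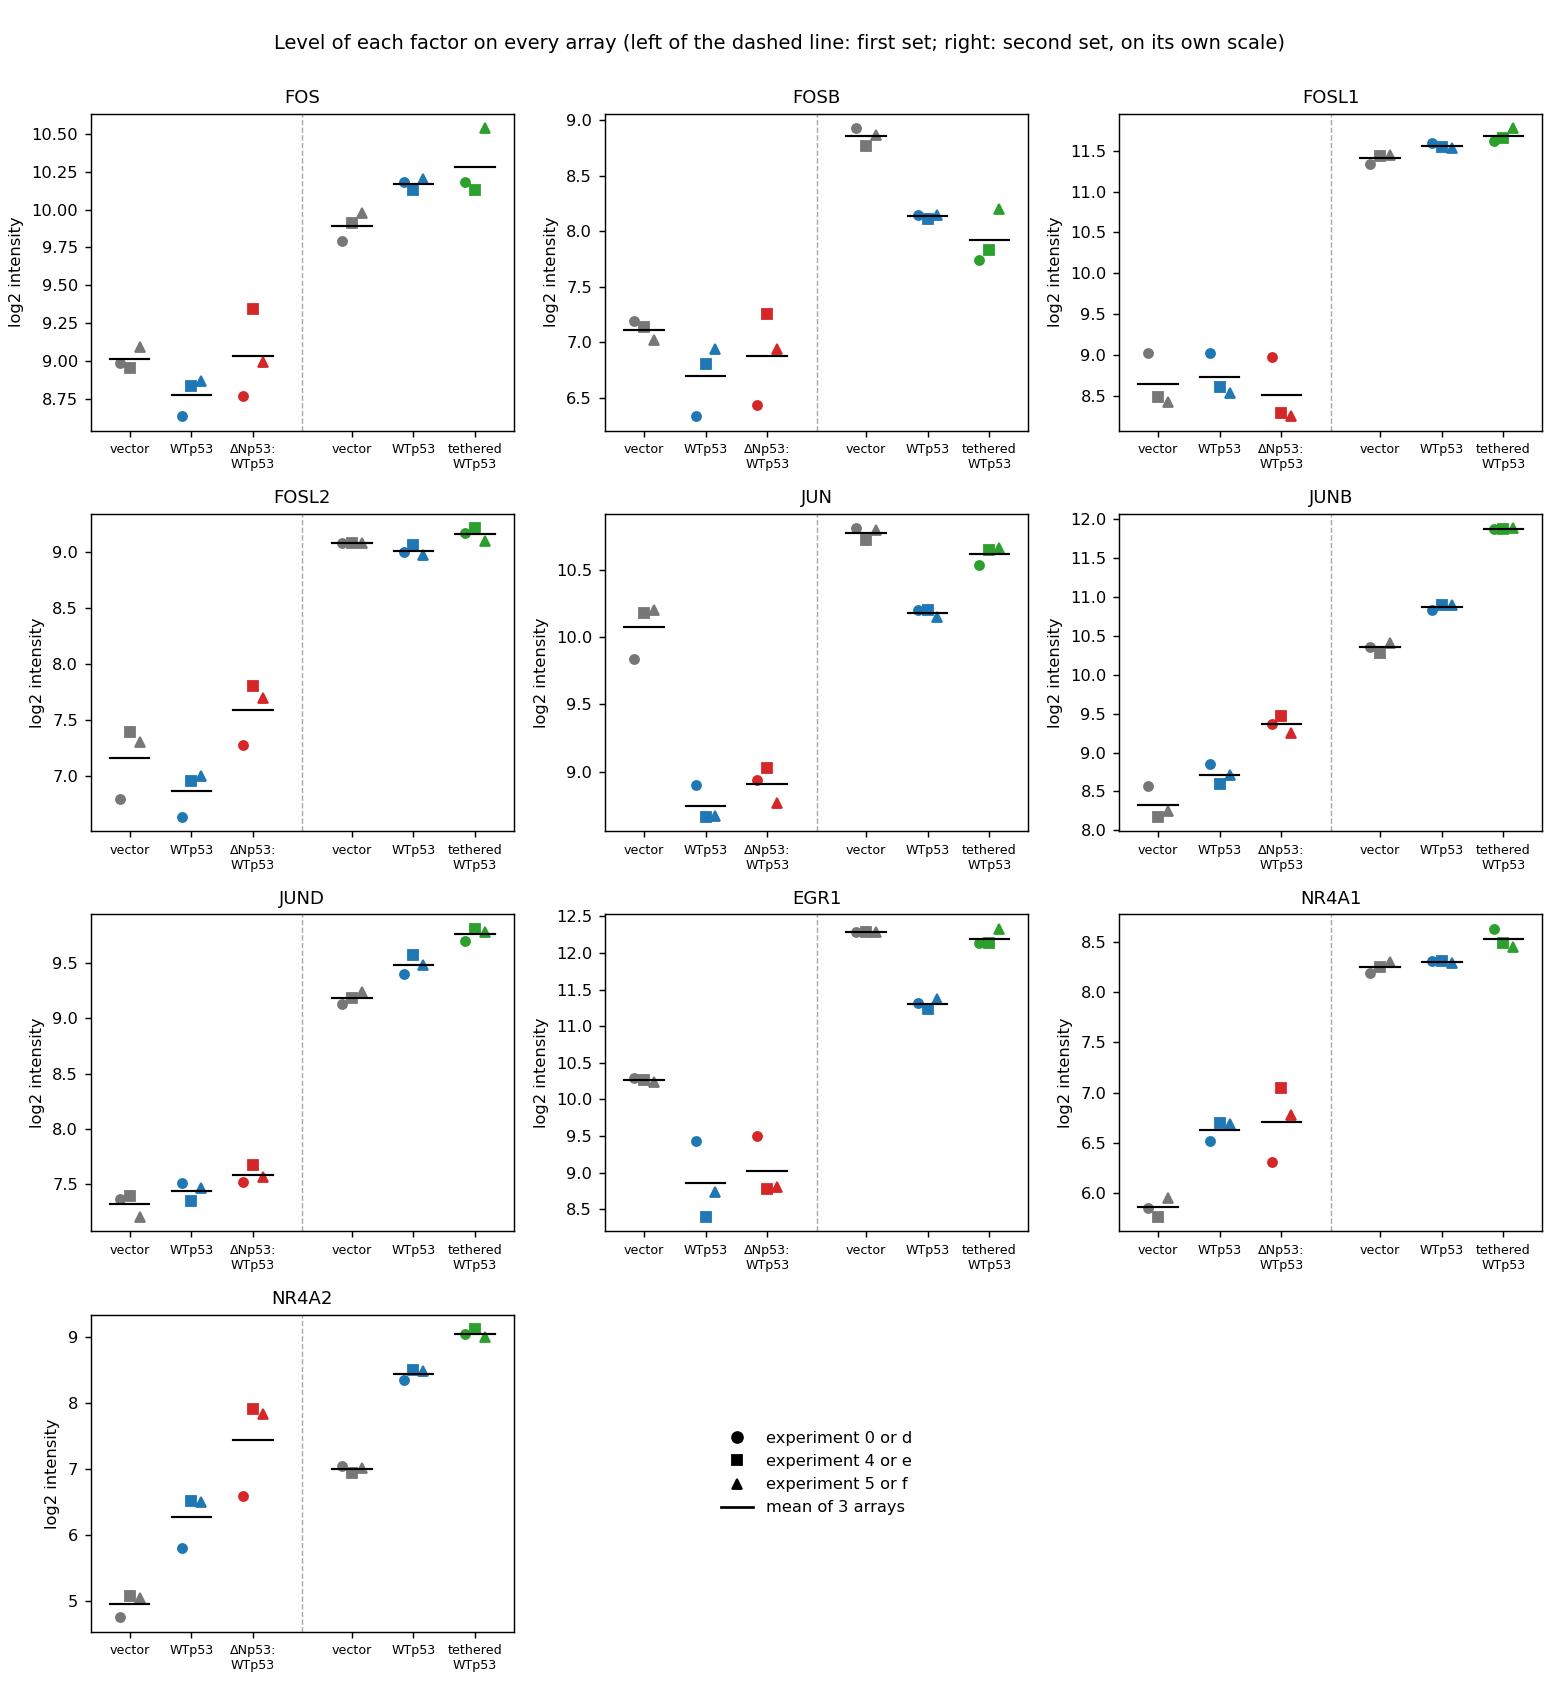
Log2 intensity of the 10 factors on each of the 18 arrays by group, 1 panel a gene, with symbols for the experiment and short lines for group means; the sets are on separate scales and are not to be compared in level. JUNB and NR4A2 step up from empty vector to WTp53 to the modified construct in both sets, and EGR1 with tethered WTp53 (12.13 to 12.33) lies near empty vector (12.29).

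The experiments of the first set carried a shared shift in some of these genes. All 3 arrays of experiment 0 were above their group mean in FOSL1, by 0.30 to 0.48, and below it in FOSL2, by 0.22 to 0.37. NR4A2 was below its group mean on them by 0.20, 0.47 and 0.86 in empty vector, WTp53 and ΔNp53:WTp53. EGR1 on them was above its group mean by 0.58 with WTp53 and 0.47 with ΔNp53:WTp53, but by 0.03 in empty vector. The fall of JUN with WTp53 was −0.94, −1.51 and −1.53 in experiments 0, 4 and 5, and that of EGR1 was −0.87, −1.87 and −1.51. The rise of NR4A2 was 1.05, 1.45 and 1.46 with WTp53 and 1.84, 2.85 and 2.80 with ΔNp53:WTp53. The direction was thus shared by the 3 experiments, and experiment 0 had the smallest size in each of these series.

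**Figure D3:**
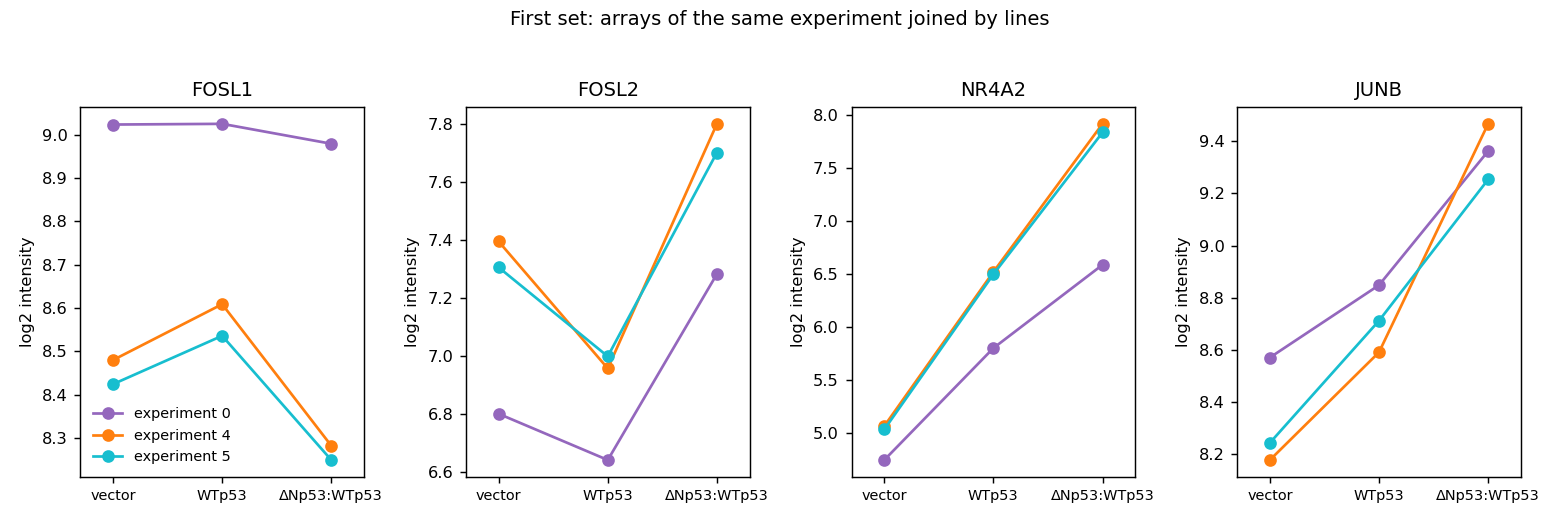
Log2 intensity of FOSL1, FOSL2, NR4A2 and JUNB in the first set, with the 3 arrays of each experiment (0, 4 and 5) joined by a line across empty vector, WTp53 and ΔNp53:WTp53. Lines of experiment 0 run high in FOSL1 (8.98 to 9.02) and low in NR4A2 (4.75, 5.80 and 6.59), while keeping the order of the groups in JUNB and NR4A2.

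Whether WTp53 moved a gene by the same amount in both sets was tested as a difference of differences in a limma fit of all 18 arrays. JUN and NR4A1 differed. The effect on JUN in the first set minus that in the second was −0.73 ± 0.13 (adjusted p = 0.00331), and that on NR4A1 was 0.72 ± 0.18 (adjusted p = 0.0172). These were 1 gene higher and 1 lower of 10, where 12.5% of all genes were called, 5.93% higher and 6.55% lower; with arrays centred on their medians 1 was higher and 2 lower. Over all genes that centring gave 823 higher and 1612 lower, against 1093 and 1207 as deposited. The p53 targets CDKN1A (1.49 ± 0.29, adjusted p = 0.00476) and MDM2 (1.30 ± 0.15, adjusted p = 3.61e-04) also had larger effects in the first set. The sets were normalised apart, and set and processing cannot be told apart in these differences.

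FOS differed between the sets by −0.51 ± 0.18 (adjusted p = 0.0699), which was called with the experiment as a block (adjusted p = 0.0331), without ΔNp53:WTp53 0 (0.0243), without ΔNp53:WTp53 4 (0.0306) and with centred arrays (0.0417). EGR1 differed by −0.72 (adjusted p = 0.0333) without WTp53 of experiment 0 and was not called with it. Without any array of experiment 0, EGR1 (−0.70, adjusted p = 5.62e-04), FOS (−0.45, 0.0496), FOSB (0.51, 0.0287) and FOSL2 (−0.30, 0.0115) were called as well.

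The step from WTp53 to ΔNp53:WTp53 in the first set was set against the step from WTp53 to tethered WTp53 in the second in the same way. None of the 10 was called by limma, where 2.95% of all genes were called, 1.54% higher and 1.42% lower. An unadjusted p under 0.05 was found for 3 of 10, with no share of all genes counted at that threshold. With arrays centred on their medians the calls over all genes were 520 higher and 180 lower, against 283 and 261 as deposited. EGR1 had −0.72 ± 0.28 (adjusted p = 0.187), JUNB −0.36 ± 0.13 (adjusted p = 0.152), FOSL2 0.58 ± 0.20 (adjusted p = 0.135) and NR4A2 0.56 ± 0.36 (adjusted p = 0.450). With the experiment as a block FOSL2 was called (adjusted p = 0.00415) and EGR1 was not (0.0550). Without ΔNp53:WTp53 of experiment 0 alone, EGR1 (−0.96, adjusted p = 0.0266), FOSL2 (0.74, 0.0210) and NR4A2 (0.99, 0.00921) were called. These sizes keep WTp53 of experiment 0 without its pair, so they mix the shift of that experiment with the step. Without any array of experiment 0, EGR1 (−0.67, adjusted p = 0.00275), FOSL1 (−0.43, 0.00501), FOSL2 (0.62, 2.65e-04) and NR4A2 (0.76, 1.18e-04) were.

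Across the 9 arrays of a set, which span all of its groups and experiments, EGR1 and JUN varied together. The Pearson r was 0.91 in the first set and 0.97 in the second. JUNB varied with JUND (0.88 and 0.96) and with NR4A2 (0.84 and 0.91). FOS and FOSB had an r of 0.84 in the first set and −0.65 in the second, and EGR1 and NR4A1 had −0.93 and 0.19. These are descriptions of the arrays, and group differences make up much of them.

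By correlation over 18 arrays centred within their sets, the genes most like JUNB were RAB27B (r = 0.975), IRF1 (0.971) and PRICKLE3 (0.965). DDIT3 (0.965), HARS2 (0.949) and CCNL1 (0.945) were most like EGR1. LY6E (0.959), SAMHD1 (0.952) and HMGA1 (0.950) were most like FOSL1, and DUSP14 (0.986), ROPN1L (0.986) and NOL4L (0.984) most like NR4A2. For FOSL1 the r within the first set was 0.979 with LY6E, 0.973 with SAMHD1 and 0.989 with HMGA1. Within the second set it was 0.878, 0.868 and 0.707 in that order. Centring within sets does not remove the shift between experiments of the first set, described above for FOSL1. The part of that shift in these r values was not tested.

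Of the other AP-1, EGR and NR4A family members and their bZIP partners, 13 of 16 were measured. With WTp53, 0 were called higher and 3 lower in the first set and 2 higher and 3 lower in the second, where 31.8% and 36.8% of all genes were called. ATF2, a JUN partner, fell with WTp53 by −1.16 ± 0.20 in the first set and −0.30 ± 0.05 in the second, and with ΔNp53:WTp53 and tethered WTp53 by −1.37 ± 0.20 and −0.39 ± 0.05. NR4A3, the third NR4A receptor, rose by 0.73 ± 0.07 with WTp53 and 1.04 ± 0.07 with tethered WTp53 in the second set and by 1.19 ± 0.28 with ΔNp53:WTp53 in the first; with WTp53 there it stood at 0.56 ± 0.28 (adjusted p = 0.164, and 0.00831 with the experiment as a block), and its step of 0.63 ± 0.28 to ΔNp53:WTp53 had an adjusted p of 0.279, and of 0.0341 with the block. ATF3, a stress-induced JUN partner, rose by 0.63 ± 0.09 with WTp53 and 1.48 ± 0.09 with tethered WTp53 in the second set, and its step of 0.85 ± 0.09 between them was called (adjusted p = 7.68e-05). In the first set ATF3 stood at 0.14 ± 0.14 with WTp53 (adjusted p = 0.514) and 0.28 ± 0.14 with ΔNp53:WTp53 (0.155, and 0.0375 with the block). The list counted 1 higher and 4 lower with ΔNp53:WTp53 over empty vector, 0 and 0 over WTp53, 3 and 2 with tethered WTp53 over empty vector, and 4 and 1 over WTp53; the shares of all genes called were 36.1%, 2.44%, 47.8% and 32.4%. For the first set, the limma counts at an unadjusted p under 0.05 were 0 higher and 5 lower for WTp53 over empty vector and 1 and 0 for ΔNp53:WTp53 over WTp53. The block gave 1 and 4, and 1 and 0, at the adjusted threshold, with 2 and 4 for ΔNp53:WTp53 over empty vector. In that order the block called 35%, 4.38% and 38.6% of all genes, and no share was counted at an unadjusted p. Its medians lay between −0.06 and 0.06 in these 6 comparisons.

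Feedback brakes are genes that immediate-early signals switch on and that then damp them: MAP kinase phosphatases (DUSP), Sprouty and SPRED proteins, mRNA decay factors of the ZFP36 family and EGR corepressors. All 19 were measured. With WTp53, 7 rose and 4 fell in the first set and 9 rose and 4 fell in the second, where 31.8% and 36.8% of all genes were called. SPRY1, an inhibitor of receptor tyrosine kinase signalling, rose by 2.41 ± 0.18 and 1.36 ± 0.06 there. SPRED2 fell by −0.61 ± 0.08 and −0.63 ± 0.05. With ΔNp53:WTp53 8 rose and 1 fell over empty vector, and 6 rose and 0 fell over WTp53; among these, DUSP10 stood 1.25 ± 0.18 (adjusted p = 0.0104) and DUSP6 0.57 ± 0.10 (adjusted p = 0.0184) above WTp53. At an unadjusted p under 0.05, limma had 10 higher and 1 lower there, with no share of all genes counted at that threshold. Without experiment 0 the adjusted count was 10 and 0, where 2461 of all 18417 genes were called, against 449 with it. With tethered WTp53 14 rose and 3 fell over empty vector and 12 rose and 1 fell over WTp53. All genes were called at 36.1% and 2.44% for ΔNp53:WTp53 and at 47.8% and 32.4% for tethered WTp53. ZFP36, which speeds the decay of AU-rich mRNAs, rose by 1.81 ± 0.06 over empty vector and 0.99 ± 0.06 over WTp53, and DUSP1 by 1.12 ± 0.05 and 0.76 ± 0.05. The medians over WTp53 were 0.32 for ΔNp53:WTp53 and 0.25 for tethered WTp53, beside −0.01 and 0.02 over all genes.

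Other immediate-early genes were measured for 27 of 29 listed. With WTp53, 9 rose and 8 fell in the first set and 11 rose and 9 fell in the second, where 31.8% and 36.8% of all genes were called. The block turned the first-set count into 9 and 11, where it called 35% of all genes. PLK3, a Polo-like kinase that responds to stress, rose by 2.28 ± 0.21 with WTp53 and 3.55 ± 0.21 with ΔNp53:WTp53, and by 1.68 ± 0.08 with WTp53 and 3.71 ± 0.08 with tethered WTp53. HBEGF, a ligand of the EGF receptor, rose by 1.50 ± 0.18, 1.65 ± 0.18, 1.29 ± 0.05 and 1.17 ± 0.05 in the same order. TNFAIP3, an inhibitor of NF-kappaB signalling, fell by −1.47 ± 0.14 with WTp53 and −1.53 ± 0.14 with ΔNp53:WTp53. Over empty vector 13 rose and 6 fell with ΔNp53:WTp53 (12 and 8 with the block, which called 38.6% of all genes). With tethered WTp53 15 and 5 did so, and over WTp53 the counts were 5 and 0, and 13 and 3. The shares of all genes called were 36.1%, 47.8%, 2.44% and 32.4%. The 5 and 0 became 8 and 1 with the experiment as a block, which called 4.38% of all genes. Without experiment 0 they became 11 and 1, where 2461 of all 18417 genes were called, against 449 with it. At an unadjusted p under 0.05 limma had 11 and 2, with no share of all genes counted at that threshold. PLK3 stood 1.27 ± 0.21 (adjusted p = 0.0184) above WTp53 with ΔNp53:WTp53 and 2.04 ± 0.08 with tethered WTp53, and KLF6 0.64 ± 0.05 and MYC 0.47 ± 0.05 above it with tethered WTp53. With ΔNp53:WTp53, MYC was 0.95 above WTp53 (adjusted p = 0.0821, and 0.0148 with the block) and KLF6 0.44 (0.176 and 0.0409); MYC differed from empty vector by −0.46 (0.199, and 0.0428 with the block). The medians over WTp53 were 0.17 and 0.11.

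Kinases and factors upstream of these genes, 22 of 28 measured, went both ways. With WTp53 6 rose and 4 fell in the first set and 9 rose and 5 fell in the second; with the modified constructs over empty vector 7 and 4, and 6 and 7, did so. In these 4 comparisons 31.8%, 36.8%, 36.1% and 47.8% of all genes were called, and over WTp53, below, 2.44% and 32.4%. SRF, the factor that binds CArG boxes, rose by 1.02 ± 0.12 with WTp53 and 0.89 ± 0.12 with ΔNp53:WTp53, and by 0.41 ± 0.04 with WTp53 and 0.47 ± 0.04 with tethered WTp53. RPS6KA1, a kinase downstream of ERK, rose by 1.43 ± 0.11 with WTp53 in the first set and 0.78 ± 0.06 in the second. CREB1, which binds the cAMP response element, fell by −0.75 ± 0.09 with WTp53 in the first set. Over WTp53, 1 rose and 1 fell with ΔNp53:WTp53 (CREB1 0.52 ± 0.09 and RPS6KA1 −0.71 ± 0.11) and 3 and 3 with tethered WTp53. The former were 2 and 1 with the block, which called 4.38% of all genes. They were 4 and 1 without experiment 0, where 2461 of all 18417 genes were called. The list medians lay between −0.06 and 0.05.

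Textbook target genes of AP-1 and EGR1 were measured for 21 of 22. With WTp53 3 rose and 1 fell in the first set and 12 and 1 in the second; with the modified constructs over empty vector 6 and 1, and 13 and 2, did so. In these 4 comparisons 31.8%, 36.8%, 36.1% and 47.8% of all genes were called. The block gave first-set counts of 4 and 2 with WTp53 and 6 and 3 with ΔNp53:WTp53, where it called 35% and 38.6% of all genes. LIF, a cytokine of the interleukin-6 family, rose by 1.09 ± 0.18 and 1.36 ± 0.08 with WTp53, and by 1.43 ± 0.18 with ΔNp53:WTp53 and 1.41 ± 0.08 with tethered WTp53. MMP13, a collagenase gene with an AP-1 site, fell by −1.03 ± 0.14, −0.76 ± 0.06, −1.07 ± 0.14 and −0.80 ± 0.06 in that order. PLAU, the urokinase gene, rose by 0.65 ± 0.05 with WTp53 and 1.16 ± 0.05 with tethered WTp53 in the second set, and its step of 0.51 ± 0.05 was called; in the first set it stood at 0.79 with WTp53 (adjusted p = 0.0804, and 0.0276 with the block). Over WTp53, 0 rose and 0 fell with ΔNp53:WTp53, and 3 rose and 2 fell with tethered WTp53, beside 2.44% and 32.4% of all genes called. The former count was 3 and 1 in limma at an unadjusted p under 0.05, with no share of all genes counted at that threshold. Without experiment 0 it was 2 and 1, and WTp53 over empty vector had 6 and 2. That setting called 2461 and 7029 of all 18417 genes in these comparisons. The medians against empty vector were 0.14 and 0.10 in the first set and 0.20 and 0.25 in the second, and those over WTp53 were −0.01 and 0.04.

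**Figure D4:**
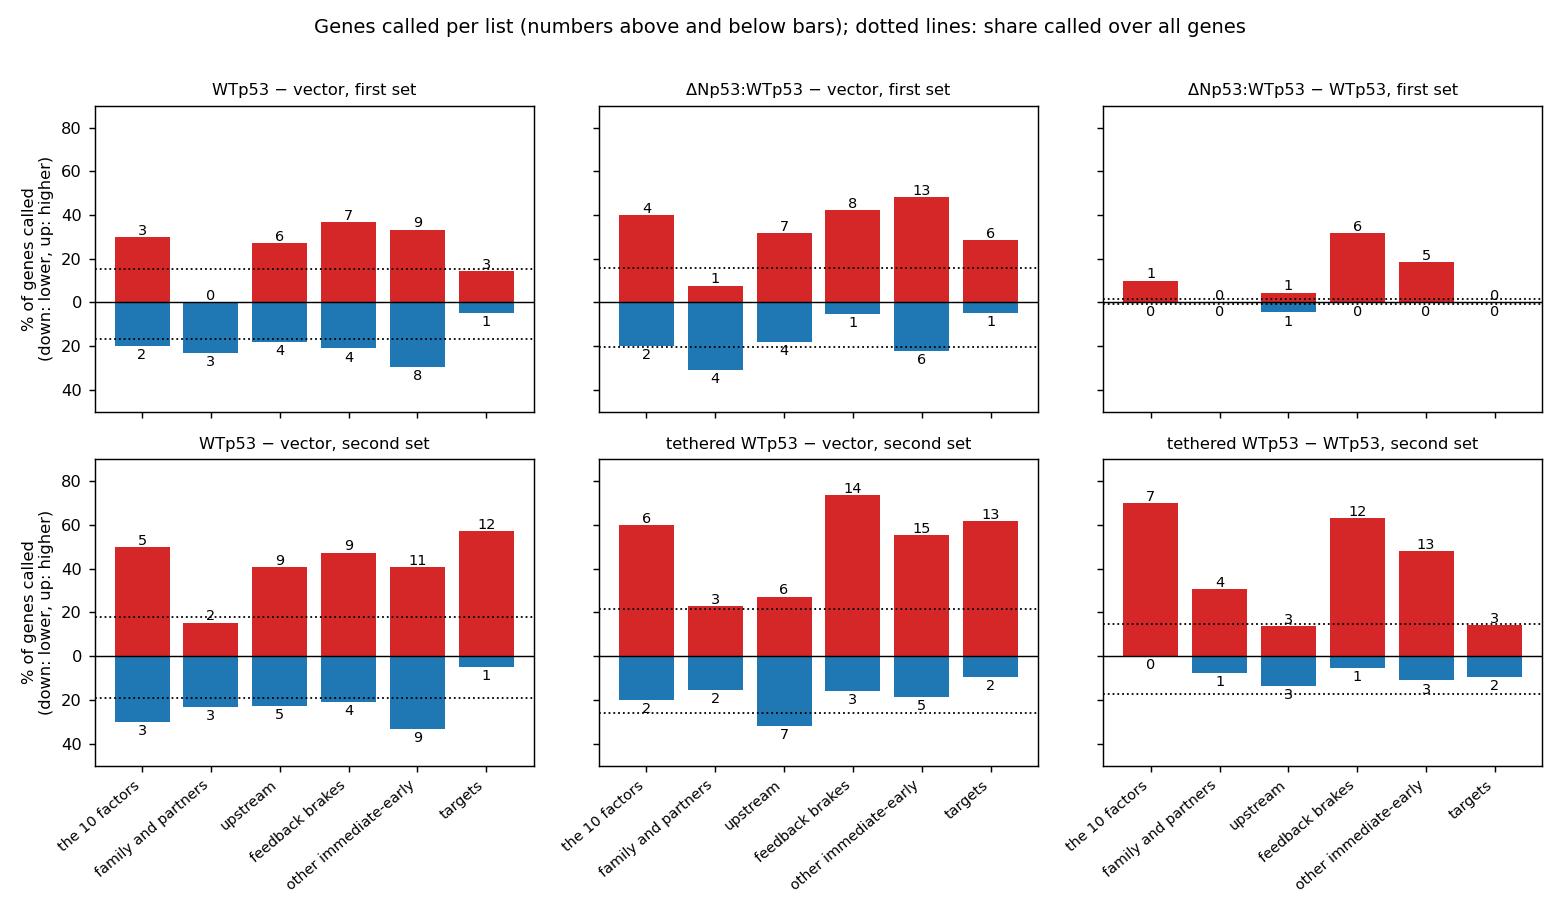
Percent of the measured genes of each list called higher (bars above 0) and lower (bars below 0) at an adjusted p under 0.05 in the 6 comparisons within sets, with the number of genes at each bar and dotted lines at the shares over all genes. The feedback brakes show 12 higher and 1 lower of 19 with tethered WTp53 over WTp53, and 6 higher and 0 lower with ΔNp53:WTp53 over WTp53.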

How the data were processed

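The 18 arrays were normalised by the authors with RMA in Affymetrix Expression Console, per the submitters' processing notes, and the deposited values are log2 intensities per probe set; the versions used are not given in the sources used here. Of 33297 probe sets, 19460 have exactly 1 symbol, 1754 several and 12083 are not listed in the probe table; the 18417 symbols were each read by the probe set of highest mean, which chose among several for 769 genes and for none of the 10. No file gives signal over background, so a low level cannot be told from background. Precision is limited by how many arrays there are. Each set of 9 arrays was fitted in limma 3.58.1 (R 4.3.3), 3 groups and no covariate, with Benjamini-Hochberg adjustment over all genes and a threshold of 0.05; differences between sets came from a fit of all 18 arrays. The scripts were tested on simulated data. The deviations from group means of arrays with the same experiment number correlated at 0.106 to 0.572 in the first set. Between experiments 4 and 5 they correlated at 0.143 to 0.350, and between experiment 0 and either at −0.499 to −0.168. The correlations thus set experiment 0 apart and do not separate 4 from 5. The design names these numbers as transfections. Blocked values are therefore given in the first set where they change the call of a gene named in that comparison or move a list's count. In the second set arrays with the same letter correlated at −0.039 to 0.132, and those with different letters at −0.214 to 0.163. Motifs were matched as letters in RefSeq promoters of GRCh38.p14. Alternatives were scaling, probe set choice, a filter on low values, the joint fit, 6 arrays alone, the block and leaving out arrays. Genes named from the other lists were the up to 4 called with the smallest adjusted p per list and comparison, and others that are the same gene in another comparison; genes of like pattern were the 3 of highest r for JUNB, EGR1, FOSL1 and NR4A2. The 10 genes, the lists and the tests were chosen with earlier results of these data known. The probe set of the transfected gene is not reported here.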

Additional observations from a re-analysis of the deposited data

Results flagged for a closer look

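The WTp53 effect, as a difference from empty vector, differed between the sets for JUN and NR4A1 by a limma test of the difference itself. For JUN it was −1.33 ± 0.12 in the first set and −0.59 ± 0.05 in the second, lower in every experiment of both, and the difference of effects was −0.733 (adjusted p = 0.00331). For NR4A1 it was 0.77 ± 0.16 in the first set, with all 3 arrays above empty vector, and 0.06 ± 0.05 in the second, where the ranges overlapped; the difference of effects was 0.718 (adjusted p = 0.0172). Both were called in each of the 27 alternatives run for this comparison. The sets also differed in scale, in the number of decimals deposited and in the effect on CDKN1A (1.49 ± 0.29) and MDM2 (1.30 ± 0.15), and the part of these in the differences was not tested.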

How the results depend on the processing

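Of 1600 values recomputed under the alternatives named above, 1521 kept their side of the threshold, 55 lost and 24 gained a call, and none of the called values changed sign. Of 50 values without any array of experiment 0, a setting chosen after the data were seen, 38 kept their side and 12 gained a call. Fitting all 18 arrays together gave 3 called genes of 10 for ΔNp53:WTp53 over WTp53, 5 for tethered WTp53 over empty vector and 4 for tethered WTp53 over WTp53. The comparison of ΔNp53:WTp53 with WTp53 had 0 called in a fit of its 6 arrays alone and 0 when p-values were adjusted over all probe sets, where 305 of 33297 probe sets were called. The replicate block gave 3 there and 1 for the difference between the steps to the modified constructs, and it changed no call within the second set. Without any array of experiment 0 the counts were 3 for ΔNp53:WTp53 over WTp53, 6 for the WTp53 effect between sets and 4 for the difference between the steps. Leaving out each array in turn gave 0 to 3 called for ΔNp53:WTp53 over WTp53 and 0 to 3 for the difference between the steps. Over all genes the same settings called 54 to 2292 and 200 to 1318.

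Over all genes, ΔNp53:WTp53 over WTp53 had 449 calls, against 2693 in the joint fit, 806 with the block, 96 with its 6 arrays and 2461 without experiment 0. The joint fit gave 3603 for WTp53 over empty vector in the second set, against 6769, and 1855 for tethered WTp53 over WTp53, against 5970. For tethered WTp53 over empty vector it gave 6215, against 8795. The block gave 747 for the difference between the steps, against 544. Without experiment 0 the WTp53 effect differed between sets in 5602 genes, against 2300, and the steps to the modified constructs in 2570, against 544. The causes were not tested.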
